A study of Mus musculus with 4 samples.

Results

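Complement C1q and a set of genes typical of tissue macrophages were examined in leukaemia stem cell preparations, 10 genes out of the 16442 of the deposited table. They were taken by symbol (C1qa, C1qb, C1qc, Lgmn, Selenop, Cd163, Mrc1, Msr1, Mertk and Apoe), and all 10 were found. They had been picked because earlier results showed that some were lower in KO and others not, so their difference between KO and WT is given as a description, without a test. Poly(A) RNA was sequenced from leukaemia stem cells, which can restart the leukaemia in a new host, taken from bone marrow of leukaemic C57BL/6 mice. The KO group held 2 libraries labelled as Rreb1 knockout (the gene encodes a DNA-binding protein with zinc fingers), and the WT group held 2 wild-type libraries with the same disease label. The sources used here do not give age, the agent that started the leukaemia, the removed part of Rreb1, the sorting scheme or whether a replicate was a single mouse or a pool. Because no label says that replicates came from separate mice beyond the word biological, p-values below measure the spread between these libraries only.

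Several labels disagree with each other. The second KO library has a genotype label that names Rreb2, and the extraction text names TAMs as the source of the RNA, while the titles name leukaemia stem cells, so libraries were grouped by title. Rreb1 itself was at 6.10 and 6.93 FPKM (fragments per kilobase of exonic length, relative to the assigned reads of the library) in KO and at 5.24 and 6.57 FPKM in WT. These ranges overlap (log2 difference 0.13, 95% limits −0.20 to 0.45, limma adjusted p = 0.616), so transcript levels over the whole gene leave the genotype labels unchecked, and KO and WT stand for the libraries labelled so. Depth was 17037495 to 18420461 assigned reads in KO and 16590827 to 18451249 in WT. The 11 precursor markers summed to 10963 and 9868 FPKM in KO and to 10957 and 8792 in WT, most of it the granule protease genes Elane, Ctsg and Prtn3. The other 8, Kit, Cd34, Hoxa9 and Meis1 among them, summed to 635 and 559 FPKM in KO and to 794 and 714 FPKM in WT. Mpo, the myeloperoxidase gene, gave 192 and 166 FPKM of this in KO and 399 and 309 FPKM in WT. Mean FPKM was higher in KO than in WT for Kit (7.26 against 3.95), Hoxa9 (33.8 against 29.6) and Meis1 (11.7 against 11.1). It was lower in KO for Cd34 (50.2 against 69.9).

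C1q is the recognition part of the first complement component. Its A, B and C chains, each a collagen-like stalk with a globular head, assemble in equal numbers and bind immune complexes and dying cells. Most complement proteins are made by the liver, but C1q comes mainly from macrophages and related cells. Resident macrophages of the marrow also clear dying cells and cell debris. For this they use scavenger receptors such as CD163 (haemoglobin with haptoglobin), the mannose receptor MRC1 and the class A receptor MSR1, and the kinase MERTK, which recognises dying cells through the bridging proteins GAS6 and protein S. Legumain (Lgmn) is a lysosomal protease that cuts after asparagine, selenoprotein P (Selenop) carries selenium in plasma, and Apoe carries lipid out of cells.

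Of the 10 genes, 8 were lower in both KO libraries than in either WT library, and Mertk and Apoe were not. That arrangement was found for 21.9% of the 16206 genes above 0 in any library. The choice of the 10 rests on this contrast, so nothing is read from the count. On the linear scale the KO mean ranged from 0.212 of the WT mean for Selenop to 0.981 for Apoe. The median log2(FPKM + 1) difference, KO minus WT, was −0.90 over the 10 genes and 0.03 over all 11768 tested genes. These are bulk samples, so fewer cells that express these genes and less RNA per such cell cannot be told apart. Which cells the transcripts came from was not tested.

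**Figure D1:**
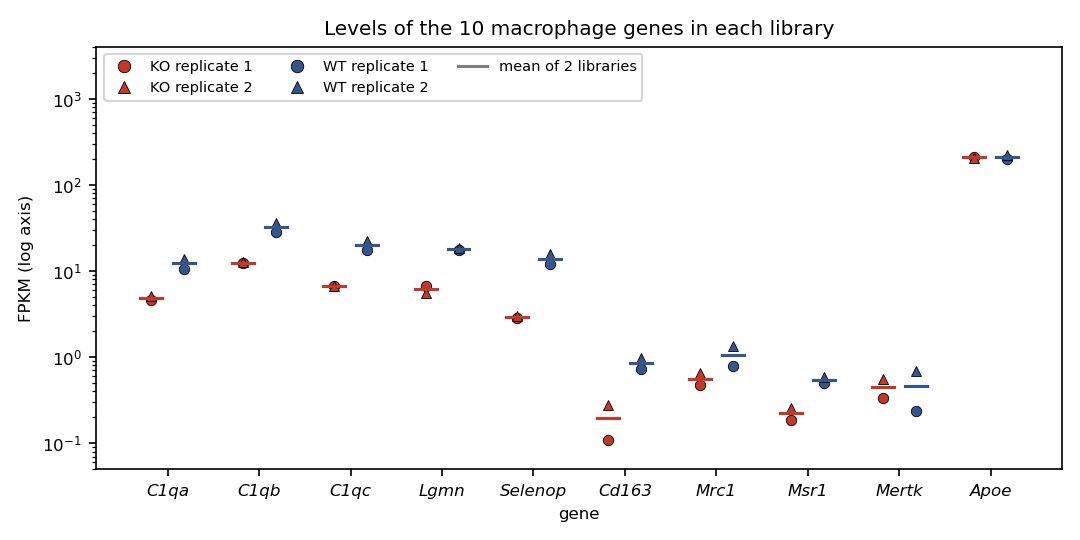
FPKM (log axis) of each of the 10 genes in the 2 KO libraries (red) and the 2 WT libraries (blue), with circles for replicate 1, triangles for replicate 2 and a line at the mean. The C1q chains, Lgmn, Selenop, Cd163, Mrc1 and Msr1 have both KO points below both WT points, Mertk overlaps at under 1 FPKM, and Apoe stays between 202 and 225 FPKM in all 4 libraries.

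The C1q chain genes stood at moderate levels and were lower in KO together. C1qb, the B chain, had 12.2 and 12.8 FPKM in KO and 28.7 and 36.1 FPKM in WT. C1qc, the C chain, had 6.69 and 6.63 FPKM in KO and 17.4 and 22.3 FPKM in WT. C1qa, the A chain, had 4.59 and 5.14 FPKM in KO and 10.5 and 14.0 FPKM in WT. For each chain the KO libraries lay close together and well below the WT libraries, of which replicate 2 was the higher. The KO level was 0.386 of the WT level for C1qb, 0.336 for C1qc and 0.397 for C1qa, and the log2(FPKM + 1) differences were −1.30, −1.43 and −1.16. In the ranking of all genes by mean level, C1qb was at percentile 73.9 in KO and 87.4 in WT.

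The proportions among the chains moved little while their sum differed. The 3 chains summed to 24.1 ± 0.772 FPKM in KO and to 64.5 ± 11.1 FPKM in WT (SD, n = 2 each), from 571 and 547 reads in KO and 1399 and 1607 reads in WT. C1qb made up 52.0% and 52.2% of the summed FPKM in KO and 50.7% and 49.9% in WT. C1qa made up 19.5% and 20.9% in KO and 18.6% and 19.3% in WT. C1qc made up 28.5% and 26.9% in KO and 30.7% and 30.8% in WT, so its share was lower in both KO libraries by a few percentage points. The B chain transcript was the most abundant of the 3 in all 4 libraries, at 2.50 to 2.66 times C1qa in KO and 2.59 to 2.73 times in WT.

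**Figure D2:**
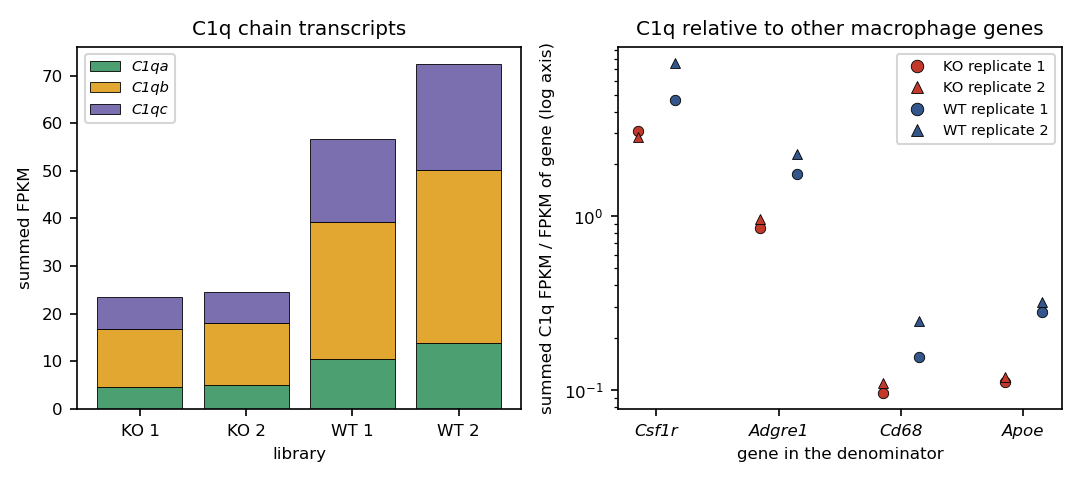
Left, summed FPKM of C1qa, C1qb and C1qc in each library (stacked bars from 0, KO before WT), 23.5 and 24.6 in KO and 56.7 and 72.4 in WT. Right, the same sum divided by the FPKM of Csf1r, Adgre1, Cd68 or Apoe in that library (log axis), where both KO points lie below both WT points for every denominator.

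Relative to other macrophage genes, C1q was also lower in KO. The sum of the chains was 3.08 and 2.84 times the level of Csf1r, the receptor for macrophage colony-stimulating factor, in KO, against 4.64 and 7.58 times in WT. It was 0.857 and 0.968 times that of Adgre1, which encodes the macrophage antigen F4/80, in KO, against 1.75 and 2.28 times in WT. Against Apoe it was 0.111 and 0.119 in KO, and 0.280 and 0.322 in WT. The C1q chains were chosen with their lower KO levels known, so each of these ratios is a description. Apoe was also among the 10, for not being lower, so the last ratio follows from the choice on both sides.

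The C1q genes are neighbours on chromosome 4 (GRCm38, minus strand), in the order C1qb (136880129 to 136886187), C1qc (136889804 to 136893065) and C1qa (136895917 to 136898803), and span 18.7 kb with gaps of 3.62 and 2.85 kb. The nearest tested protein-coding genes are outside the cluster. Kdm1a, a histone demethylase 277 kb from C1qb, had 1.87 and 2.30 FPKM in KO and 1.73 and 1.87 FPKM in WT (limma adjusted p = 0.629). Zbtb40, a zinc-finger gene 80.9 kb from C1qa, had 3.03 and 3.52 FPKM in KO and 2.49 and 3.02 FPKM in WT (adjusted p = 0.465). The other members lie on chromosomes 2, 6, 7, 8, 12 and 15. Over all of them, 15 nearest tested neighbours had log2 differences from −0.25 to 0.29, and 0 of 15 were called by limma or by limma-voom, with 2 at an unadjusted p below 0.05, where 20.7% of all tested genes were (11.4% higher and 9.35% lower in KO). The neighbours lay 2.13 to 1015 kb from the member.

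Promoter sequences were available for 8 of the 10 genes (RefSeq, GRCm38.p6, C1qa and Msr1 not among them). The 250 bases before the first listed start of each were searched on both strands for letters that myeloid factors can bind. GAGGAA, the core read by PU.1 (encoded by Spi1) and other ETS factors, was in 5 of 8, namely C1qb, C1qc, Selenop, Mrc1 and Apoe, and in 23.3% of all 32851 promoters. TGCTGA, the core read by MAF factors, was in C1qb alone and in 16.1% of all promoters. CACGTG, read by MITF and TFE factors, TGACTCA, read by AP-1, and CCCCAAAC, the start of a published binding matrix for human RREB1, were in 0 of 8 and in 6.02%, 4.46% and 1.58% of all. Those shares count every listed start of a gene, and of the members' later starts the second of Lgmn holds CACGTG, 44 to 49 bases before it. The searched motifs do not overlap each other in these windows. The 5 stretches with GAGGAA are shown 5′ to 3′ on the gene's strand, up to the first base inside any annotated exon, because they include the C1q genes, which were lower in KO together, and Apoe, which was not. Capitals mark GAGGAA or its reverse complement TTCCTC and, in C1qb, TGCTGA.
C1qb (chr4:136886201-136886450, minus strand): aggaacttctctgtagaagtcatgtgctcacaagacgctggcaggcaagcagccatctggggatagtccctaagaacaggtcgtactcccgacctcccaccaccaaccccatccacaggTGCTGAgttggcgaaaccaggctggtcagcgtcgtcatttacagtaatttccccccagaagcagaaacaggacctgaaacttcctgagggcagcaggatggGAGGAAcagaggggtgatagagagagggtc
C1qc (chr4:136893066-136893164, minus strand): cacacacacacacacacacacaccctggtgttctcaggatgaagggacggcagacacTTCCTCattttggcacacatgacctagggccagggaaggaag
Selenop (chr15:3270517-3270766, plus strand): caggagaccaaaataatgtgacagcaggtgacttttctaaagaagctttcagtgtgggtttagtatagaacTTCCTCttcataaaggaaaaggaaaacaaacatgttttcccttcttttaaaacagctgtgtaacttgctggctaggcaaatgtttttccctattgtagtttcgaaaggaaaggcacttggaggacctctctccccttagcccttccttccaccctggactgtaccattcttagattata
Mrc1 (chr2:14229164-14229391, plus strand): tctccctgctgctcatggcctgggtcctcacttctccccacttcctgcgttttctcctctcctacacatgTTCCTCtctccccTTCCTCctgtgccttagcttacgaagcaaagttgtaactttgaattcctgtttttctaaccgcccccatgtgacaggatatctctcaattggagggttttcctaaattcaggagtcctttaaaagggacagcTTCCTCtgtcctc
Apoe (chr7:19699189-19699438, minus strand): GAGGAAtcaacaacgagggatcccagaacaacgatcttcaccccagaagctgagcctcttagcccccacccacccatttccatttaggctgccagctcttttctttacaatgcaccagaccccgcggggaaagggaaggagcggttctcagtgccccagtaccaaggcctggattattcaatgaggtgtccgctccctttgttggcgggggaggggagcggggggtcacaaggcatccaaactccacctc
The GAGGAA core lies 25 to 30 bases before the start of C1qb, 188 to 193 before that of C1qc, 174 to 179 before that of Selenop and 245 to 250 before that of Apoe. Mrc1 holds it at 3 places, the nearest 30 to 35 bases before the start. The starts used for C1qc, Lgmn, Selenop and Mrc1 lie inside the annotated span of the gene, downstream of its first base. For Selenop that span is 3268547 to 3280508. The first bases from the starts used for C1qb, Cd163 and Mertk were in no annotated transcript of the gene. The core was thus present both at genes that were lower in KO and at Apoe, and a match of letters is a description, not a binding site.

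Selenop and Lgmn were lower in KO to a similar or larger extent than C1q. Selenop (chromosome 15, 3268547 to 3280508) had 2.87 and 3.04 FPKM in KO and 12.0 and 15.8 FPKM in WT, from 150 and 147 reads in KO and 631 and 744 reads in WT. Its log2(FPKM + 1) difference was −1.90, and its KO mean was 0.212 of the WT mean, the lowest ratio of mean FPKM among the 10. On the read scale of limma-voom, Cd163 was lower still (−2.24, against −2.22 for Selenop). Lgmn (chromosome 12, 102394084 to 102439813) had 6.68 and 5.61 FPKM in KO and 17.8 and 18.6 FPKM in WT, with a log2(FPKM + 1) difference of −1.43. The WT libraries differed by a factor of 1.05 for Lgmn and of 1.31 for Selenop.

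The scavenger receptor genes were at low levels, and 0 of the 3 reached the filter of a mean of 1 FPKM. Cd163 had 0.109 and 0.279 FPKM in KO and 0.734 and 0.971 FPKM in WT. These values rest on 11 and 26 reads in KO (95% exact Poisson intervals 5.49 to 19.7 and 17.0 to 38.1, for counting error only) and on 74 and 88 reads in WT (58.1 to 92.9 and 70.6 to 108). The KO mean was 0.228 of the WT mean. Its log2(FPKM + 1) difference, −0.63, understates this because the pseudocount of 1 exceeds the level of the gene.

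Msr1 had 0.188 and 0.259 FPKM in KO and 0.495 and 0.580 FPKM in WT, from 22 and 28 reads in KO and 58 and 61 reads in WT, a ratio of 0.416. Mrc1 had 0.469 and 0.645 FPKM in KO and 0.791 and 1.33 FPKM in WT, a ratio of 0.524. The reads behind Mrc1 were 55 and 70 in KO and 93 and 141 in WT. KO replicate 2 and WT replicate 1 were the closest pair across the groups.

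Mertk and Apoe were the 2 members whose groups overlapped. Mertk had 0.338 and 0.555 FPKM in KO and 0.237 and 0.681 FPKM in WT, from 27 and 41 reads in KO and 19 and 49 reads in WT. The WT libraries enclose the KO libraries, and few reads stand behind each value. Apoe (chromosome 7, 19696109 to 19699188) had 212 and 207 FPKM in KO and 202 and 225 FPKM in WT, from 8351 and 7536 reads in KO and 7977 in each WT library. The KO mean was 0.981 of the WT mean (log2(FPKM + 1) difference −0.03). At percentile 98.5 of all genes in both groups, Apoe was the most abundant of the 10, and its FPKM was 9.02 and 8.41 times the summed C1q chains in KO and 3.57 and 3.11 times in WT.

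Within the WT group the members shared a direction. All 10 were higher in WT replicate 2 than in WT replicate 1, by factors from 1.05 (Lgmn) to 2.87 (Mertk), where 57.1% of all genes above 0 were. In KO, 7 of the 10 were higher in replicate 2, against 51.8% of all genes. The ratio was 2.56 for Cd163, on few reads, and 0.990 for C1qc. The higher WT library thus carried part of the gap for C1q. The mean log2 difference of the 3 chains was −1.30 with all libraries, −1.47 without WT replicate 1 and −1.13 without WT replicate 2.

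By the distance between centred log2(FPKM + 1) profiles over the 4 libraries, the tested genes most like the mean C1q profile were Ccl6, Cd5l, Mir6374, Cxcl12 and Cyp11a1, at distances of 0.121, 0.191, 0.230, 0.233 and 0.241. For scale, C1qa itself was at 0.145 and C1qc at 0.146. Ccl6, a myeloid CC chemokine, had 19.5 and 18.7 FPKM in KO and 46.1 and 55.2 FPKM in WT. Cd5l, a secreted scavenger receptor protein made by tissue macrophages, had 1.28 and 1.44 FPKM in KO and 3.83 and 6.36 FPKM in WT. Cxcl12, a chemokine of marrow stroma, had 0.830 and 0.660 FPKM in KO and 2.42 and 3.19 FPKM in WT. Mir6374 rested on 1 and 1 read in KO and on 6 and 6 reads in WT. Being chosen for their likeness over the same libraries, these genes get no test.

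Genes around the members were read from lists of other macrophage, complement, lysosomal, lipoprotein and selenium genes, 149 of whose 200 entries were in the table. In limma's trend fit on log2(FPKM + 1), with Benjamini-Hochberg adjustment over all 11768 tested genes, 2 of the 113 tested list genes rose in KO and 3 fell. Of all tested genes 0.603% rose and 0.408% fell. By limma-voom on recovered reads, the alternative quoted below, 10 list genes rose and 19 fell, and of all genes in that fit 4.36% rose and 2.91% fell. In the trend fit the genes that rose were Cd33 and Scara3, and the genes that fell were Irf8, Ctss and Ctsc. All 5 were also called by limma-voom, at adjusted p from 0.000208 (Cd33) to 0.0045 (Scara3). The median log2 difference of the 113 was 0.00. With 1 library left out, 2 list genes (Cd33 among them) were called without KO replicate 1 and 0 without KO replicate 2, WT replicate 1 or WT replicate 2, in fits with fewer samples. Without the filter on level 0 were called.

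**Figure D3:**
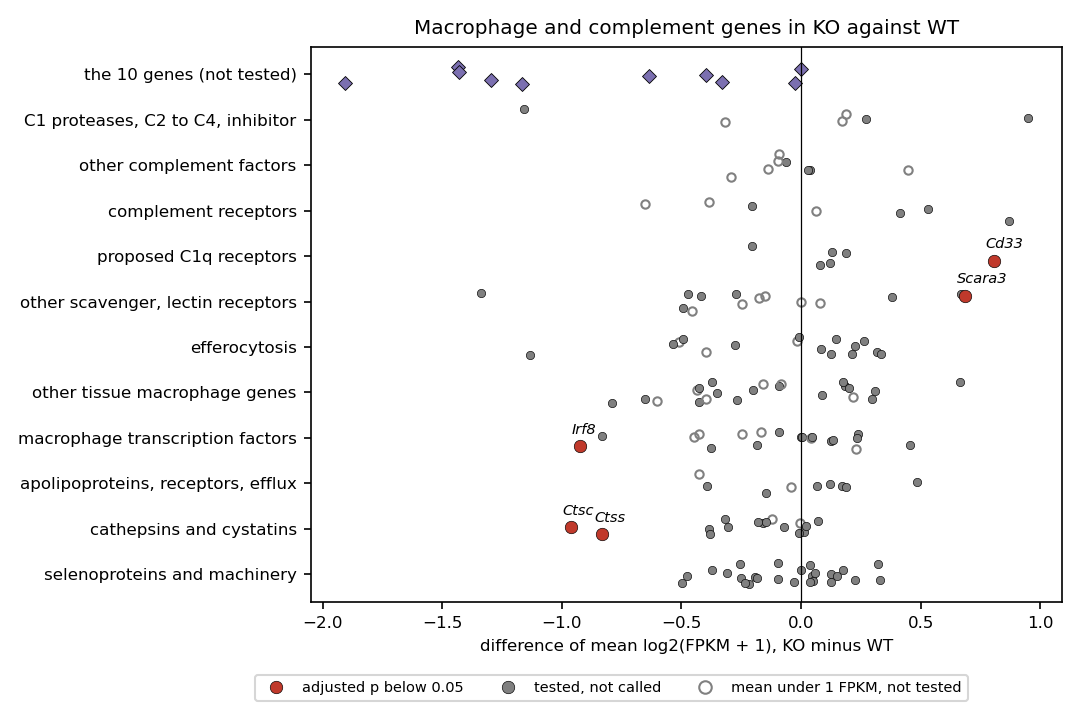
Difference of mean log2(FPKM + 1), KO minus WT, for the 10 genes (diamonds, not tested) and for each gene of the lists around them (circles, vertical position within a row arbitrary). Red circles are the 5 called genes (Cd33 and Scara3 to the right of 0, Irf8, Ctss and Ctsc to the left), filled grey circles were tested and not called, and open circles had a mean under 1 FPKM.

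Complement genes other than C1q had 0 calls by limma. Of the C1 proteases, C2 to C4 and the C1 inhibitor, 6 of 12 were in the table and 3 were tested. Serping1, the C1 inhibitor, had 0.957 and 0.505 FPKM in KO and 3.01 and 2.67 FPKM in WT (log2 difference −1.16, SE 0.18, limma adjusted p = 0.0567, with limma-voom adjusted p = 0.00355). C3, the central component, had 12.6 and 16.8 FPKM in KO and 7.70 and 6.46 FPKM in WT (log2 difference 0.95, SE 0.15, limma adjusted p = 0.0606, with limma-voom adjusted p = 0.0011). C1rl, a C1r-like protease, had 7.65 and 10.6 FPKM in KO and 8.30 and 6.41 FPKM in WT. Among those under the filter, C1ra, the protease C1r, had 0.146 and 0.197 FPKM in KO and 0.745 and 0.222 FPKM in WT, and C4b had 0.334 and 0.629 FPKM in KO and 0.476 and 0.138 FPKM in WT. C1ra was thus below every C1q chain in all 4 libraries, and C1s1 and C1s2 were not analysed here.

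Of other complement factors and regulators, 3 were tested, with 0 at an unadjusted p below 0.05 and 0 called by limma-voom. Properdin (Cfp), the stabiliser of the alternative pathway convertase, was abundant at 522 and 515 FPKM in KO and 633 and 464 FPKM in WT. C8g and the regulator Cr1l were at 4.91 to 5.45 and 9.27 to 9.78 FPKM in KO and at 4.97 to 5.08 and 9.13 to 9.51 FPKM in WT. Of complement receptors, 4 were tested and 0 called by limma, with 3 higher at an unadjusted p below 0.05 and the same number called higher by limma-voom. The C5a receptor C5ar1 had 14.5 and 14.3 FPKM in KO and 9.68 and 9.62 FPKM in WT (log2 difference 0.53, limma adjusted p = 0.0567). The CR3 chains Itgam and Itgb2 had log2 differences of 0.87 and 0.41 (limma adjusted p = 0.133 and 0.144), and that of Itgam depended on KO replicate 2. It was 1.23 without KO replicate 1 (adjusted p = 0.0404) and 0.51 without KO replicate 2 (adjusted p = 0.318). Vsig4, the C3b receptor of resident macrophages, had 3 reads in each KO library and 21 and 18 reads in WT, 0.110 and 0.119 FPKM in KO and 0.767 and 0.731 FPKM in WT, under the filter.

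Among 6 tested proteins proposed to bind C1q, Cd33 rose and 0 fell. Cd33, a sialic acid-binding lectin of myeloid cells proposed in human cells to bind C1q, had 58.9 and 64.3 FPKM in KO and 34.5 and 35.1 FPKM in WT. Its log2 difference was 0.80 (SE 0.084, limma adjusted p = 0.0200, higher in both KO libraries than in both WT libraries). Without 1 library its adjusted p ran from 0.0483 (without KO replicate 1) to 0.139 (without WT replicate 1), and it was 0.0518 without the filter on level.

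Scavenger receptors outside the 10 genes did not share one direction. Of 8 tested, Scara3 rose and 0 fell, while 3 were higher and 4 lower at an unadjusted p below 0.05, and as many of each by limma-voom. Scara3, a class A receptor relative induced by oxidative stress in human cells, had 9.75 and 9.51 FPKM in KO and 5.67 and 5.55 FPKM in WT (log2 difference 0.69, SE 0.093, limma adjusted p = 0.0402). Its adjusted p was 0.0764 with the replicate number as a block, 0.0897 without the filter on level, and 0.116 to 0.246 with 1 library left out. Cd68, an abundant endosomal glycoprotein of macrophages and other myeloid cells, had 244 and 226 FPKM in KO and 368 and 290 FPKM in WT (log2 difference −0.47, limma adjusted p = 0.158, with limma-voom adjusted p = 0.0242). The lectin gene Cd209b was listed at 0 in all 4 libraries.

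Of 13 tested efferocytosis genes 0 were called by limma, with 2 higher and 4 lower at an unadjusted p below 0.05 and 2 lower by limma-voom. Axl, a kinase of the same family as Mertk, had 0.647 and 0.455 FPKM in KO and 1.91 and 2.96 FPKM in WT (log2 difference −1.13, SE 0.20, limma adjusted p = 0.0739, with limma-voom adjusted p = 0.0013). Havcr2 (TIM-3) and Mfge8, which bridges dying cells to integrins, had log2 differences of −0.53 and −0.49 (limma adjusted p = 0.158 and 0.165). The MERTK and AXL ligands Gas6 and Pros1, named after their values were seen, were under the filter. Gas6 had 0.447 and 0.438 FPKM in KO and 1.06 and 1.04 FPKM in WT, and Pros1 had 6 and 3 reads in KO and 32 and 25 reads in WT. Of the 16 efferocytosis genes in the table, 6 were lower in both KO libraries than in both WT libraries, and 7 were higher in both. The lower ones were Axl, Gas6, Pros1, Havcr2, Mfge8 and Rac1. The higher ones were Itgav, Itgb3, Adgrb1, Elmo1, Dock2, Anxa1 and Xkr8. Over all genes above 0 in any library, 21.9% were lower in both. The share of all genes that were higher in both was not counted, so nothing is read from the 7. Mertk, chosen with its values known, was not lower.

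The shares of all tested genes at an unadjusted p below 0.05, 11.4% higher and 9.35% lower, apply to each list. In the list of other tissue macrophage genes 16 were tested and 0 called by limma, with 1 higher and 6 lower at an unadjusted p below 0.05, and 1 higher and 3 lower by limma-voom. Hmox1, the haem oxygenase of macrophages that take up red cells, had 9.43 and 8.88 FPKM in KO and 14.7 and 18.6 FPKM in WT (log2 difference −0.79, SE 0.13, limma adjusted p = 0.0567). Cx3cr1, the fractalkine receptor, had a log2 difference of −0.65 (adjusted p = 0.0934), and Fcgr4, an IgG receptor, of 0.66 (adjusted p = 0.102). The lineage genes differed less than C1q, which was chosen with its difference known. Adgre1 had 27.4 and 25.4 FPKM in KO and 32.3 and 31.7 FPKM in WT (log2 difference −0.27, limma adjusted p = 0.170), and Csf1r had 7.63 and 8.65 FPKM in KO and 12.2 and 9.55 FPKM in WT (−0.37, adjusted p = 0.207). Trem2 was under the filter at 0.143 and 0.309 FPKM in KO and 0.362 and 0.232 FPKM in WT.

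Of 13 tested transcription factor genes of macrophages, Irf8 fell and 0 rose. Irf8, a factor that directs the monocyte lineage, had 16.3 and 15.3 FPKM in KO and 34.6 and 27.4 FPKM in WT (log2 difference −0.92, SE 0.12, limma adjusted p = 0.0393). Its adjusted p ran from 0.0786 to 0.221 with 1 library left out and was 0.0944 without the filter on level. Spic, which specifies iron-recycling macrophages, had 0.565 and 0.535 FPKM in KO and 1.54 and 1.99 FPKM in WT (log2 difference −0.83, limma adjusted p = 0.0970, with limma-voom adjusted p = 0.0055). Maf was under the filter at 0.389 and 0.513 FPKM in KO and 0.691 and 0.753 FPKM in WT. Spi1, encoding PU.1, was abundant at 302 and 285 FPKM in KO and 294 and 247 FPKM in WT (log2 difference 0.12, adjusted p = 0.577). Nr1h3, the sterol receptor LXR alpha, which activates Apoe in macrophages, had 3 and 12 reads in KO and 25 and 25 reads in WT.

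Genes near Apoe in function had 0 calls by limma among 7 tested, with 1 higher at an unadjusted p below 0.05 and 1 higher by limma-voom. Sorl1, a sorting receptor that binds apolipoprotein E, had 10.9 and 13.8 FPKM in KO and 8.45 and 8.51 FPKM in WT (log2 difference 0.48, limma adjusted p = 0.135). The sterol exporter Abcg1 had 2.74 and 2.45 FPKM in KO and 4.44 and 3.10 FPKM in WT (−0.39, adjusted p = 0.253). Lrp8, a receptor for apolipoprotein E and for selenoprotein P, had 1.61 and 1.94 FPKM in KO and 1.29 and 1.57 FPKM in WT (0.19, adjusted p = 0.521). Apoc1, the gene beside Apoe, had 1.02 and 2.13 FPKM in KO and 2.19 and 0.567 FPKM in WT, and Tomm40 on the other side had 59.8 and 51.5 FPKM in KO and 66.3 and 62.9 FPKM in WT, so neither neighbour was near the level of Apoe.

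Among lysosomal proteases and their inhibitors, the company of Lgmn, 2 of 14 tested genes fell and 0 rose, with 6 lower and 0 higher at an unadjusted p below 0.05. Cathepsin S (Ctss), which processes the invariant chain in antigen-presenting cells, had 121 and 117 FPKM in KO and 231 and 195 FPKM in WT (log2 difference −0.83, SE 0.11, limma adjusted p = 0.0365). Cathepsin C (Ctsc), which activates granule serine proteases, had 6.76 and 5.07 FPKM in KO and 13.2 and 11.6 FPKM in WT (log2 difference −0.96, SE 0.14, limma adjusted p = 0.0497). Ctss was at an adjusted p of 0.0513 with the replicate number as a block and of 0.0850 to 0.211 with 1 library left out. Ctsc was at 0.0512 with a pseudocount of 0.1, at 0.0554 with upper-quartile scaling and at 0.0568 to 0.238 with 1 library left out. Without the filter on level both were uncalled, at 0.0897 and 0.114.

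Selenoproteins other than Selenop, and the genes that insert selenocysteine, had 0 calls by limma among 26 tested, with 2 higher and 6 lower at an unadjusted p below 0.05 (11.4% and 9.35% of all tested genes) and 3 lower by limma-voom. Selenof, an endoplasmic reticulum selenoprotein, had 42.2 and 38.2 FPKM in KO and 50.6 and 54.2 FPKM in WT (log2 difference −0.37, limma adjusted p = 0.119). Gpx3, the secreted glutathione peroxidase, had 119 and 104 FPKM in KO and 169 and 143 FPKM in WT (−0.48, adjusted p = 0.127). Selenok had 145 and 157 FPKM in KO and 121 and 120 FPKM in WT (0.32, adjusted p = 0.144). The median of the list was −0.01, beside the −1.90 of Selenop on the same scale.

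The tissue macrophage label was checked on 16 defining markers, of which 11 were in the table, 8 were tested and 3 had a mean under 1 FPKM. Their summed level was 303 and 284 FPKM in KO and 439 and 363 FPKM in WT, most of it Cd68. Without Cd68 it was 58.7 and 57.6 FPKM in KO and 70.8 and 73.6 FPKM in WT. Of the 11, 8 were lower in both KO libraries than in both WT libraries, as were 21.9% of all genes above 0, and 1 was higher in both. The higher one was Slc40a1, with 14.7 and 14.1 FPKM in KO and 12.2 and 12.9 FPKM in WT. Vcam1 was among those that overlapped, with 5.15 and 5.55 FPKM in KO and 4.74 and 6.98 FPKM in WT. By limma 0 of the 8 tested were called, with 5 lower at an unadjusted p below 0.05, beside 9.35% of all tested genes. Siglec1, Timd4, Folr2, Marco and Clec4f were not analysed here. Apoe, Cd68, Spi1 and Ctss are also expressed by other myeloid cells, so they do not mark tissue macrophages by themselves.

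Markers of other cell types also differed between the groups. Of 12 neutrophil markers 8 rose and 0 fell, and their sum was 2951 and 3536 FPKM in KO and 1281 and 1307 FPKM in WT. Of 11 tested granulocyte and monocyte precursor markers 0 were called by limma, with 3 higher and 2 lower at an unadjusted p below 0.05 and 2 higher and 2 lower by limma-voom. Mpo had 192 and 166 FPKM in KO and 399 and 309 FPKM in WT (limma adjusted p = 0.0532). Kit, the stem cell factor receptor, had 7.36 and 7.15 FPKM in KO and 3.65 and 4.25 FPKM in WT (limma adjusted p = 0.0512). Of 10 tested monocyte markers 2 fell (Irf5 and Ms4a6c) and 0 rose, with 5 lower and 1 higher at an unadjusted p below 0.05 and 4 lower by limma-voom. Their sum, 849 and 930 FPKM in KO and 860 and 777 FPKM in WT, was mostly Ly6c2, and without Ly6c2 it was 203 and 225 FPKM in KO and 298 and 264 FPKM in WT. Erythroid markers rose for 5 of 7 tested, with a sum of 430 and 523 FPKM in KO and 99.1 and 90.7 FPKM in WT. B cell and plasma cell markers fell for 4 of 6, with a sum of 139 and 122 FPKM in KO and 237 and 226 FPKM in WT. Those 4 were Ighm, Igkc, Igha and Jchain, while Cd79a, a B cell receptor chain, had 3.09 and 3.71 FPKM in KO and 1.79 and 1.82 FPKM in WT (log2 difference 0.65, limma adjusted p = 0.101). Dendritic cell markers had 0 calls among 5 tested by limma (2 lower at an unadjusted p below 0.05, 1 by limma-voom). Their sum was 898 and 947 FPKM in KO and 1030.3 and 834 FPKM in WT. Most of it was Cst3, at 856 and 911 FPKM in KO and 982 and 782 FPKM in WT, so the sum mainly follows that gene.

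Osteoclasts share genes with macrophages. Of 4 tested osteoclast markers 1 fell (Atp6v0d2, 0.460 and 0.151 FPKM in KO and 3.19 and 5.06 FPKM in WT). Mmp9, also a neutrophil gene, rose. The list summed to 48.5 and 51.8 FPKM in KO and 35.8 and 37.0 FPKM in WT. Mmp9 gave 22.3 and 22.0 FPKM of this in KO and 6.86 and 5.94 FPKM in WT, so the higher KO sum rested on Mmp9. Stromal and endothelial markers had 0 calls among 4 tested by limma (2 higher and 1 lower at an unadjusted p below 0.05, 1 of each by limma-voom), with a sum of 73.6 and 81.0 FPKM in KO and 63.7 and 70.8 FPKM in WT. No marker of these lists was at 0 in all 4 libraries. The part of these cell types in the lower C1q, Selenop and Lgmn levels was not tested.

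**Figure D4:**
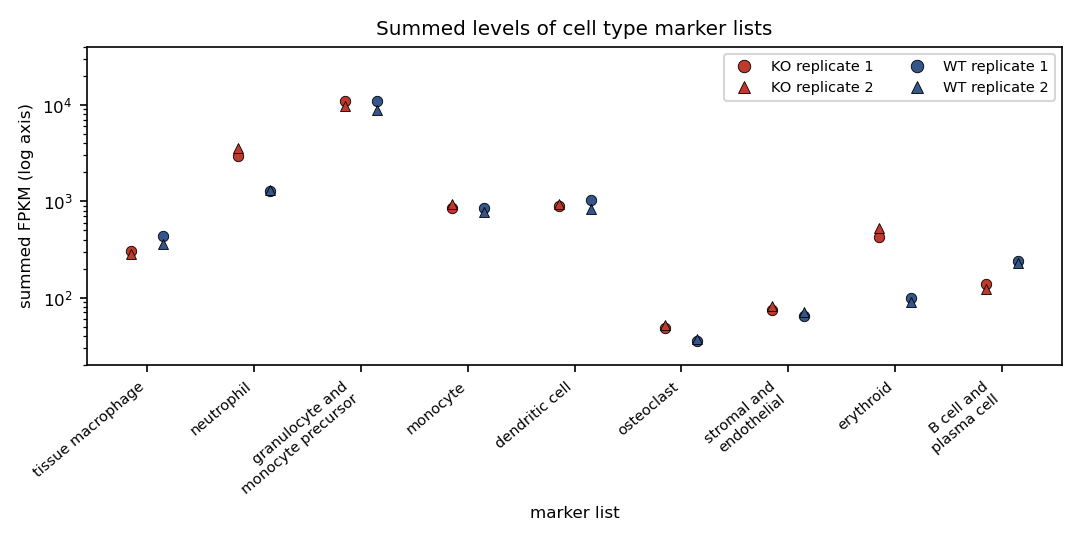
Summed FPKM (log axis) of each cell type marker list in the 2 KO libraries (red) and the 2 WT libraries (blue). The tissue macrophage and B cell sums are lower in KO, the neutrophil and erythroid sums are higher in KO (2951 and 3536 FPKM, and 430 and 523 FPKM), and precursor sums overlap at 8792 to 10963 FPKM.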

How the data were processed

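Poly(A) RNA was sequenced in 2 KO and 2 WT libraries. Per the submitters' processing notes, the tools were HISAT2 2.1.0, CASAVA, DESeq2 and featureCounts and the build was GRCm38, with no roles stated. The authors deposited 1 table of values that behave as FPKM with 1 added (lowest value 1), although its unit is not named, and that 1 was subtracted. Symbols were matched to GENCODE M21 (16014 of 16442 genes, 97.4%). FPKM times exonic length was a whole number of reads, within 0.05, in 99.0% to 99.2% of cases at or under 30 reads, and this gave the depths. At those depths 3 reads on 2 kb of exon are 0.0813 to 0.0904 FPKM, for counting error only.

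Differences were tested with limma 3.58.1 (R 4.3.3, trend form, two-sided) on log2(FPKM + 1) for the 11768 genes whose mean reached 1 FPKM, with group as the only term and a threshold of 0.05 after Benjamini-Hochberg adjustment. A permutation of 2 against 2 libraries cannot give a p below 0.333, so p-values depend on limma's pooling of spread across genes (2 residual and 4.10 prior degrees of freedom). Log2 differences are KO minus WT on the log2(FPKM + 1) scale, which understates changes of low genes. Alternatives were another pseudocount, 2 other filters, upper-quartile scaling, limma-voom on recovered reads, the replicate number as a block, and each library left out.

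The 10 genes and all lists were chosen with earlier results of these data known. The text names the 10 genes. Of each list it names the called genes, or else the 3 of smallest p, and a set of macrophage and complement genes whatever their p (1 of these is not reported here), and it adds the 5 genes nearest to the C1q profile. Irf5, Ms4a6c, Mpo, Kit, Cd34, Hoxa9, Meis1, Cd79a, Atp6v0d2, Mmp9, Slc40a1, Vcam1 and the immunoglobulin genes were named after their values were seen, as were the genomic neighbours. The same holds for Gas6, Pros1, Rac1, Itgav, Itgb3, Adgrb1, Elmo1, Dock2, Anxa1 and Xkr8. The kit's description has no strand marking, so antisense reads may count toward the overlapping gene.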

Additional observations from a re-analysis of the deposited data

How the results depend on the processing

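With 2 libraries a group, calls depended on the settings. Over all tested genes 71 rose and 48 fell. Without the filter on level these were 22 and 10, with a filter at 3 FPKM 107 rose, and by limma-voom on recovered reads 501 rose and 335 fell. With a replicate block 40 rose and 26 fell. With 1 library left out 4 to 50 rose and 2 to 14 fell. Among the list genes 2 rose and 3 fell. The counts were 0 and 0 without the filter on level, 5 and 5 at 3 FPKM and 10 and 19 by limma-voom, and 1 rose with the replicate block. With 1 library left out 0 to 2 rose and 0 to 0 fell. Dropping the filter adds genes to the adjustment, the stricter filter removes some, and leaving out a library leaves fewer samples. For limma-voom and the block the cause was not tested. The labels' numbers do not state a pairing, and same-numbered libraries did not deviate together (r = 0.0090 over 11768 genes).

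The median log2 difference of the 10 genes was −0.90 with a pseudocount of 1, −1.33 with 0.1 and −1.34 on the read scale of limma-voom. The pseudocount's construction shrinks low genes. It ran from −1.04 to −0.76 with 1 library left out, and the C1q mean ran from −1.47 to −1.13.

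Uncalled log2 differences near 0 changed sign with 1 library left out. Their ranges were −0.34 to 0.68 for Apoc1, −0.026 to 0.10 for C8g, −0.29 to 0.16 for Cfp, −0.0065 to 0.063 for Cr1l, −0.093 to 0.37 for Fbxo4, −0.12 to 0.061 for Pex5, −0.0025 to 0.25 for Spi1 and −0.0023 to 0.13 for Tusc3. Without KO replicate 2, Apoc1 was at −0.14. Of the 10 genes, Mertk ran from −0.22 to 0.22 and Apoe from −0.10 to 0.05.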
